A study of Mus musculus with 32 samples.

Results

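Progeny of transferred monocytes were compared between colon and ileum 12 days after the transfer, at the last time point of an experiment in mice. The comparison rests on 8 libraries, 4 of colon and 4 of ileum, out of 32 in the series, chosen by the segment and the day in their titles. Recipients were C57BL/6J mice carrying bone marrow of B6.FVB mice with the transgene Tg[Itgax-DTR/GFP]57Lan/J, written [CD11c-DTR > WT], in which the Itgax promoter makes CD11c-expressing cells of marrow origin sensitive to diphtheria toxin (DTx). All recipients of both segments received 18 ng of DTx per g of body weight on the days before transfer and 9 ng per g at intervals afterwards, so that no library of the comparison is free of toxin. The graft was CD117- CD11b+ CD115+ Ly6C+ GFPint bone marrow (BM) monocytes of Cx3cr1 GFP/+ mice. Cells were sorted from digested tissue as DAPI- CD45+ CD11b+ CD64+ Ly6C- MHCII+, and the study describes a sort of the graft's progeny on CD45.1 and GFP. In the study the gate with MHCII is that of resident macrophages, so its use for these libraries is uncertain. Digestion lasted 40 minutes for colon and 20 minutes for ileum, so the segment and the digestion time cannot be told apart. Dates in the titles place the libraries in 3 experiments, with replicates 1 and 2 of either segment in experiment 2, replicates 3 in experiment 1 and replicates 4 in experiment 3. The labels do not say which libraries came from separate animals, and they give no age, so p-values measure the spread between these libraries, which may in part be technical.

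Macrophages of the gut wall are renewed from Ly6C+ blood monocytes that mature in the tissue and come to take up debris and bacteria without mounting inflammation, a restraint that depends on the receptor for IL-10. Colon and ileum offer them different surroundings. The ileum absorbs fat and bile acids, holds Paneth cells that secrete defensins at the base of its crypts and is rich in lymphocytes, whereas the colon absorbs salt and water under a thick mucus made by goblet cells and carries far more bacteria.

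Reads on genes numbered 1891838 to 4604348 per colonic library and 1586531 to 3381891 per ileal library. Levels are given as normalized reads, which are counts per 10000000 mapped reads and are not divided by gene length, since the method reads the 3′ end of transcripts. The count of 3 reads that serves as a floor equalled 3.65 to 11.28 normalized reads, and this floor, like the intervals given with ratios of reads, covers counting error only. Fold changes are log2 values of colon minus ileum with their standard error (SE), fitted with edgeR's quasi-likelihood test to 11842 genes in all 25 libraries of the table that were used, and adjusted p-values are those of Benjamini and Hochberg over all of these genes. The first principal component held 64.3% of the variance over the 8 libraries and separated the segments, with the colonic libraries at 34.3 to 57.0 and the ileal libraries at -64.3 to -34.0. The second held 15.1% and set replicates 1 of both segments, at -28.3 and -43.1, apart from the other six, at -1.75 to 26.15.

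The libraries of either segment carried RNA of macrophages, of other leukocytes and of the epithelium, in different proportions. The summed reads of 10 genes used by all leukocytes, among them Ptprc, which encodes the CD45 that served in the sort, were 6944, 1967, 2884 and 2223 in colonic replicates 1 to 4 and 33503, 9929, 13692 and 11950.5 in ileal replicates 1 to 4. The sums of 27 genes of macrophage identity were 93469, 34037, 41685 and 44556 in colon and 344415, 118734, 86155 and 159134 in ileum. Both sums were higher in ileum than in colon within every pair of the same number, and only replicate 1 of colon reached the range of the ileal libraries for the macrophage genes. The sums of 16 genes of epithelial cells were 122873, 161746, 168537 and 151752 in colon and 23161, 56848, 56102 and 38296 in ileum, against a mean of 49.3 in the graft. The epithelial genes held 2.09 to 2.88% of the reads on genes in the colonic libraries and 0.384 to 1.07% in the ileal ones, where the macrophage genes held 0.607 to 1.59% and 1.44 to 5.71%. None of the epithelial genes was at 0 throughout. Because these markers move with the segment, the groups are called colonic and ileal libraries here, and the part of other cells in the results below was not tested. In samples sequenced in bulk, fewer cells of a type and less RNA per cell cannot be told apart.

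**Figure D1:**
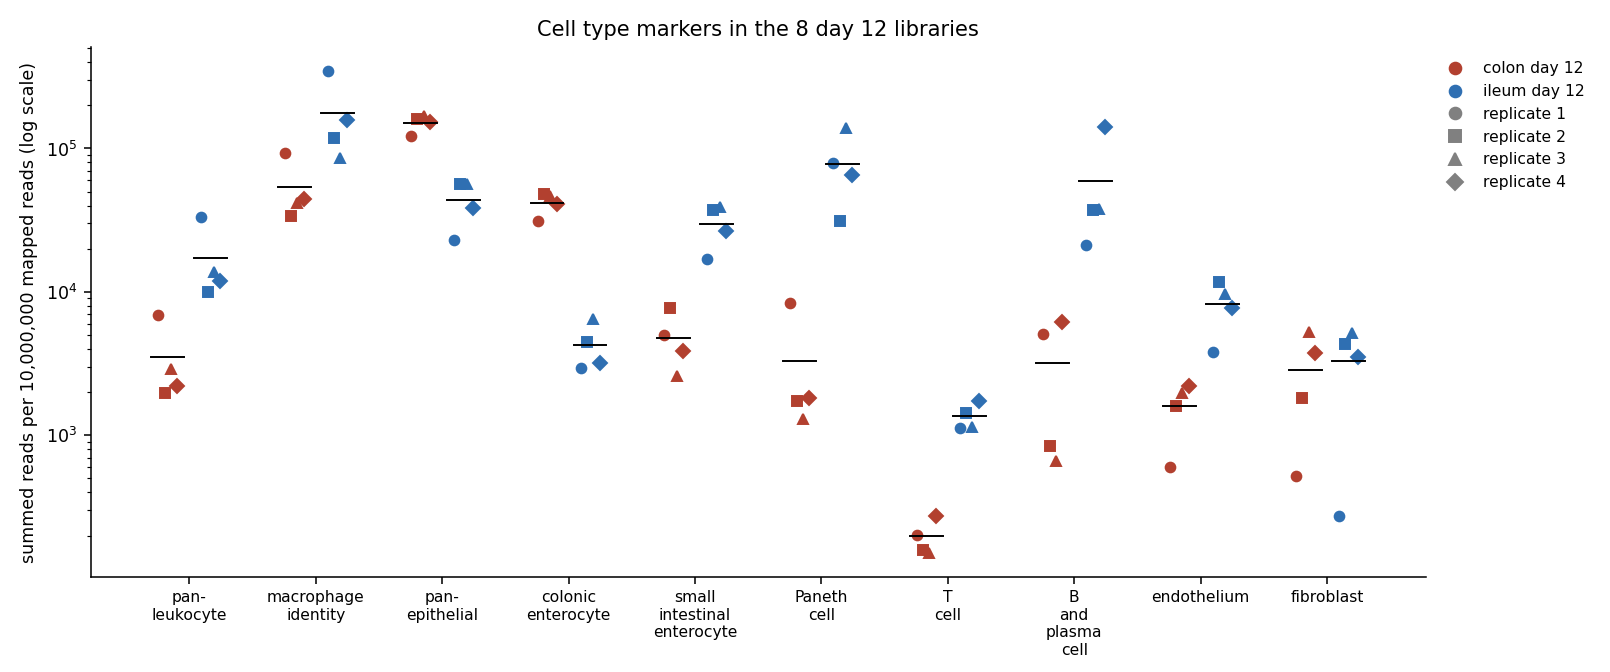
Summed reads of 10 marker lists per 10,000,000 mapped reads, on a log axis, in the 4 colonic (red) and 4 ileal (blue) libraries of day 12. Each symbol is 1 library, its shape gives the replicate, and black lines are means of 4. The pan-leukocyte sums run from 1967 to 6944 in colon and from 9929 to 33503 in ileum, and the pan-epithelial sums lie in the opposite order.

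At an adjusted p under 0.05, 3846 of 11842 genes (32.5%) differed between the segments, of which 1808 (15.3%) were higher in colon and 2038 (17.2%) lower. All counts of list members below are to be read beside these shares. A difference of at least 2-fold was seen for 2914 genes (24.6%), 1191 higher (10.1%) and 1723 lower (14.5%). The 4 colonic and 4 ileal libraries did not overlap in 3617 genes (30.5%). Of the 3846 genes, 3740 (97.2%) had the same direction in 3 of 3 experiments, but they were selected on these same libraries. In 2925 of them (76.1%) the segments did not overlap, which fixes that direction, so the agreement is no independent evidence. The median over all genes tested was -0.01. Since leukocyte RNA itself was lower in colon, some genes are also given per read of the 10 pan-leukocyte genes, fitted to the 8 libraries alone. This ratio was added after the data were seen. On that scale 9969 genes passed (84.2%), 9835 (83.1%) higher in colon and 134 (1.13%) lower, and the median of all genes was 2.42. The scale thus moved nearly all genes upwards in colon, so its values are given beside 2.42, and a call against 0 is given only for genes that were lower on it. It shifted most genes by a similar amount. A place above or below the median gene on this scale is therefore no second line of evidence. All 134 were also lower relative to all reads. A gene that stays lower on this scale therefore rests on the same counts, which is no independent evidence. Without ileal replicate 1, the library with the highest leukocyte sum, 1397 genes were higher and 1647 lower relative to all reads. The 10 genes are shared by lymphocytes, and per read of Csf1r, Fcgr1 and Adgre1, a narrower choice, 8157 genes passed (68.9%), 7995 (67.5%) higher and 162 (1.37%) lower, with a median of 1.94.

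Pparg, Nos2 and Il10ra had been chosen as markers of the comparison. Pparg encodes a nuclear receptor for fatty acids that curbs inflammatory genes in macrophages and is also made by the colonic epithelium. Its normalized reads were 495, 538, 553 and 351 in colonic replicates 1 to 4 and 72.4, 130.00, 132 and 101 in ileal replicates 1 to 4. Every colonic library lay above every ileal one, with means of 484 ± 92.1 and 109 ± 28 (SD, n = 4), and Pparg was higher in colon by 2.05 ± 0.41 (SE) on the log2 scale (edgeR adjusted p = 0.000988). Per 100 pan-leukocyte reads the values were 7.13, 27.4, 19.2 and 15.8 in colon and 0.216, 1.31, 0.961 and 0.841 in ileum, and the difference was 4.40, beside 2.42 over all genes.

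Nos2, the inducible synthase of nitric oxide in activated macrophages, had 31.139, 7.31, 44.8 and 26.4 normalized reads in colon and 63.4, 93.6, 195 and 73.9 in ileum. The ileal libraries were all higher, with colonic replicate 3 and ileal replicate 1 nearest to each other, and the fold change was -2.10 ± 0.54 (edgeR adjusted p = 0.00545). Il10ra encodes the ligand-binding chain of the receptor for IL-10. Its normalized reads were 255, 51.2, 140.1 and 145 in colon and 663, 330.2, 286 and 476 in ileum. Again the groups did not overlap, and Il10ra was lower in colon, at -1.78 ± 0.59 (edgeR adjusted p = 0.0237), a call that was lost when colonic replicate 2, colonic replicate 3, ileal replicate 1 or ileal replicate 4 was left out, with the value then between -1.69 and -1.48. Per pan-leukocyte read Nos2 was at 0.17 and Il10ra at 0.63, both below the median of 2.42 over all genes.

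**Figure D2:**
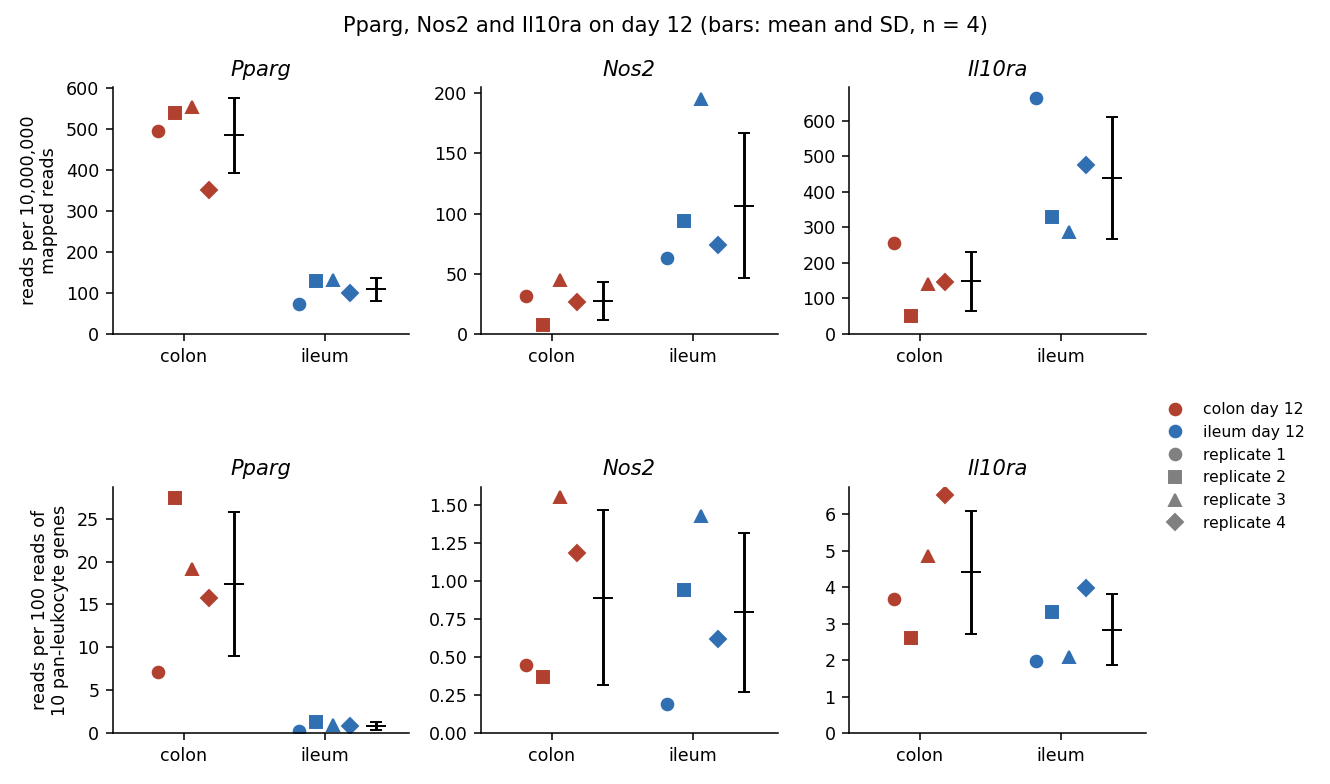
Pparg, Nos2 and Il10ra in the 8 libraries of day 12, as reads per 10,000,000 mapped reads (upper panels) and per 100 reads of 10 pan-leukocyte genes (lower panels). Symbols are libraries, shaped by replicate, and bars are the mean and SD of 4. The colonic and ileal libraries are apart for all 3 genes above, and below, where the median gene is higher in colon by 2.42 on the log2 scale, only for Pparg, whose colonic values are 7.13, 27.4, 19.2 and 15.8 and ileal values 0.216, 1.31, 0.961 and 0.841.

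The other genes of the IL-10 axis followed the receptor in part. Of 10 tested, 0 were higher in colon and 5 lower, with a median of -0.64 against -0.01 over all genes. The lower ones included Il10ra, the kinase gene Jak1 of the receptor complex, Socs3, an inhibitor induced by IL-10, and Il4ra, the chain for IL-4 and IL-13 that IL-10 signals enhance. Socs3 had 601, 407, 691 and 759 normalized reads in colon and 1220.3, 1359.8, 812 and 924 in ileum (-0.94 ± 0.26), and Il4ra had 442, 161, 341 and 209 and 1009.7, 879, 744 and 594 (-1.65 ± 0.32), with edgeR adjusted p = 0.00896 and 0.000791. Neither overlapped between the segments. Jak1 passed narrowly at -0.78 ± 0.30 (edgeR adjusted p = 0.049) and lost its call without any of 6 libraries (colonic replicates 2, 3 and 4, ileal replicates 1, 3 and 4), with the value then between -0.81 and -0.54. The genes of the second receptor chain and of the transcription factor did not pass, with -0.51 ± 0.29 for Il10rb and -0.42 ± 0.22 for Stat3. Il10, the cytokine itself, had 81, 7.31, 66.2 and 28 normalized reads in colon and 24.9, 54.6, 52.6 and 82.8 in ileum, which overlapped and did not pass (-0.51 ± 0.67). With ileal replicate 1 left out, 2 of the 10 were lower.

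Genes that define macrophages were mostly lower in colon. Of 26 tested, 20 were lower and 1 was higher, with a median of -1.90. Csf1r, the receptor for the growth factor on which macrophages depend, had 3942, 1048, 1164 and 1207 normalized reads in colon and 17974, 4371, 3725 and 4600.1 in ileum. Replicate 1 was far above the other three of its segment in both, and without ileal replicate 1 the fold change of -2.23 ± 0.58 became -1.32 and the call was lost (edgeR adjusted p = 0.00539 and 0.0575). Fcgr1, which encodes the CD64 of the gate, had 286, 102, 149.9 and 80.8 and 908, 325, 229 and 513 normalized reads (-1.90 ± 0.55, edgeR adjusted p = 0.011), and its call too was lost without ileal replicate 1 (-1.404). Cx3cr1, the fractalkine receptor that carries the GFP of the graft, had 610.3, 175, 154 and 460.1 and 1571, 1118, 849 and 1607, with no overlap (-2.02 ± 0.50, edgeR adjusted p = 0.00414). Mertk, a receptor for dying cells, lay under the filter on low counts with 13.2 to 40.5 normalized reads in colon and 20.7 to 45.3 in ileum.

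Apoe, the apolipoprotein of tissue macrophages, had 55237, 16752, 18204 and 23881 normalized reads in colon and 206046, 81292, 38269 and 109226 in ileum (-2.10 ± 0.57). Lyz2, the lysozyme of myeloid cells, had 3958, 1274, 1199 and 1202 and 24816, 2288, 8689.5 and 3695 (-2.53 ± 0.60). Adgre1, which encodes F4/80, passed at -1.45 ± 0.47, but not without any of colonic replicates 2, 3 and 4 or ileal replicates 1 and 4, when it stood between -1.38 and -1.16. For these 3 genes edgeR adjusted p lay between 0.00306 and 0.0208. Without ileal replicate 1, 11 of the 26 genes were lower instead of 20.

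Per pan-leukocyte read the macrophage list had a median of 0.51 beside 2.42 over all genes. Its place below the median gene on this scale follows from the common shift and adds no evidence. Csf1r was then at 0.33, Fcgr1 at 0.60, Cx3cr1 at 0.30 and Apoe at 0.35. Relative to all reads the pan-leukocyte genes themselves had a median of -2.39 and 10 of 10 were lower. Of the 8 genes of the sort gate and the graft's label, 6 were lower relative to all reads (17.2% of all genes), and 2 without ileal replicate 1.

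**Figure D3:**
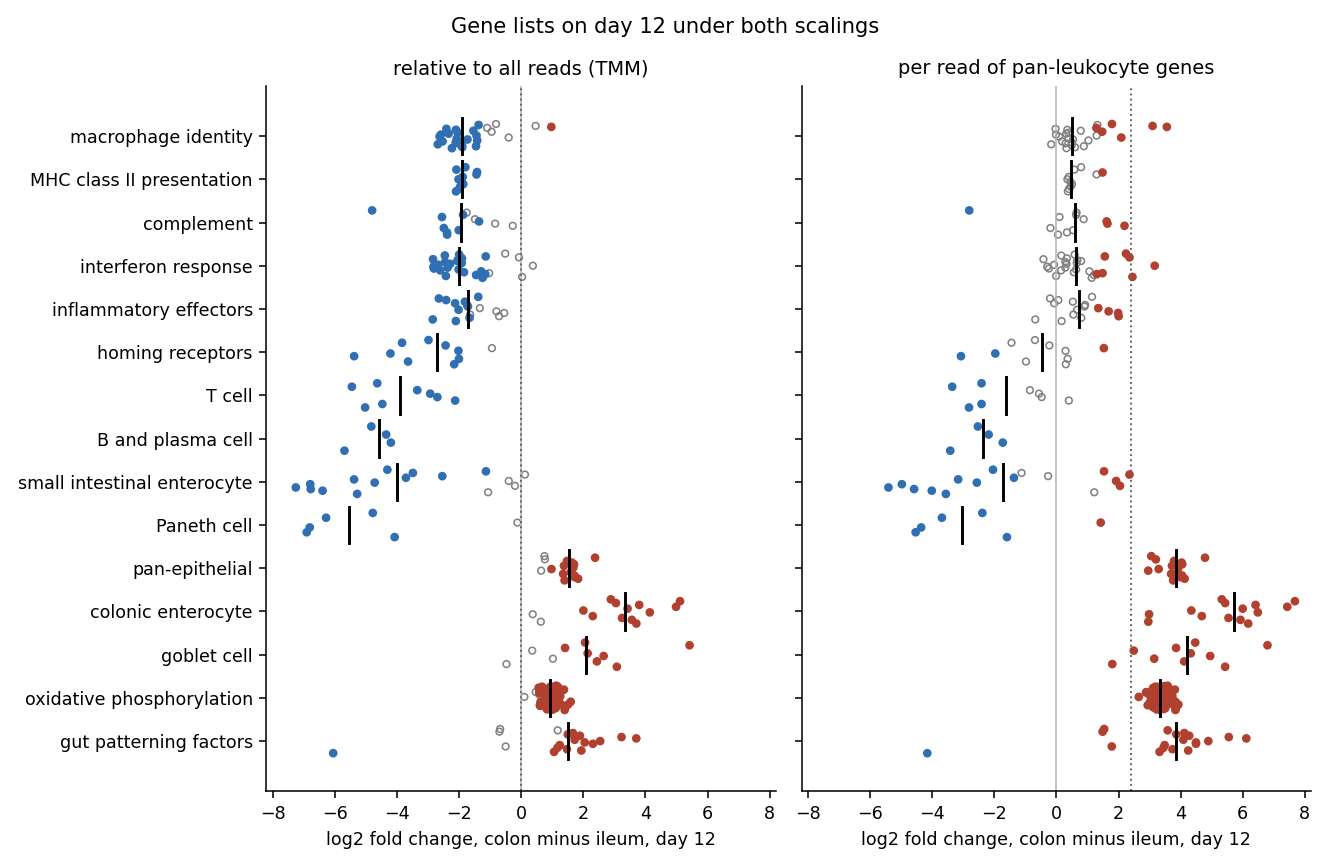
Log2 fold change, colon minus ileum, of the genes of 15 lists on day 12, relative to all reads (left) and per read of 10 pan-leukocyte genes (right). Each point is 1 gene, filled red where higher in colon, filled blue where lower and open where the adjusted p against 0 was 0.05 or more. Black bars are medians of a list and dotted lines the median of all genes tested, -0.01 on the left and 2.42 on the right, against which the right panel is to be read. The macrophage list moves from -1.90 to 0.51, the T cell list from -3.91 to -1.63 and the pan-epithelial list from 1.53 to 3.85.

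Genes of antigen presentation, complement and the interferon response were mostly lower in colon. MHC class II presentation, by which antigen is shown to CD4 T cells, had 11 tested genes, of which 11 were lower in colon, with a median of -1.91. H2-Ab1 encodes the beta chain of MHCII, which the study lists in its gate for resident macrophages. It had 16189, 4799.8, 10247 and 3348 normalized reads in colon and 60988, 22237, 11565 and 32419 in ileum (-2.10 ± 0.62, edgeR adjusted p = 0.0131). Cd74, the invariant chain, had 13894, 3443, 5418 and 2362 and 42977, 14063, 11091 and 20581 (-2.02 ± 0.57, edgeR adjusted p = 0.00962). Replicate 1 of colon overlapped with the ileal libraries in both genes. With ileal replicate 1 left out both calls were lost, at -1.54 and -1.44, and 1 of 11 genes was still lower.

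Of 12 complement genes 8 were lower and none was higher, with a median of -1.94. C1qa, a chain of C1q that macrophages secrete, had 7735, 2112, 2908 and 3112 normalized reads in colon and 34542, 12651, 13729.6 and 13377 in ileum, without overlap (-2.39 ± 0.60, edgeR adjusted p = 0.00437). Of 27 genes of the interferon response 22 were lower and none higher, with a median of -1.996, and 19 of the 27 did not overlap between the segments (30.5% of all genes in either direction). Isg15, a ubiquitin-like protein induced by type I interferon, had 433, 119, 278 and 110.5 and 3192, 606, 639 and 466 normalized reads (-2.61 ± 0.63, edgeR adjusted p = 0.0033). Ileal replicate 1 was far above the rest, and without it the value was -1.420 and 18 of the 27 genes were lower. Per pan-leukocyte read the list had a median of 0.64 and Isg15 was at 0.15, beside 2.42 over all genes.

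Inflammatory effectors gave 11 lower and no higher genes among 16 tested, with a median of -1.73. Besides Nos2 they included Cybb, the catalytic subunit of the phagocyte oxidase, with 1327, 307, 453 and 251 normalized reads in colon and 6009, 1295, 1842 and 1751 in ileum (-2.41 ± 0.56, edgeR adjusted p = 0.00269). Il1b, the pyrogenic cytokine, had 3989, 660.3, 2213 and 505 and 11148, 2961, 3183 and 2738 (-1.66 ± 0.55, edgeR adjusted p = 0.0245), with overlap. Its call depended on ileal replicate 1, without which the value was -0.84, and was also lost without colonic replicate 2, 3 or 4, at -1.69 to -1.36. Mmp9, a gelatinase of activated myeloid cells, had 1859, 328, 506 and 107 and 8626, 2506, 2323 and 1570.3 normalized reads (-2.62 ± 0.76, edgeR adjusted p = 0.011) and likewise lost its call without ileal replicate 1 (-1.73). Without ileal replicate 1, 6 of the 16 were lower, and with library totals 7.

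Other functions of gut macrophages gave mixed counts. Of 15 genes for the uptake of dying cells 9 were lower and 2 higher (13.3%, beside 15.3% of all genes). Axl, a receptor that recognises such cells through its ligand Gas6, had 526, 228, 379.5 and 279 normalized reads in colon and 1286, 616, 601 and 1025 in ileum (-1.51 ± 0.34), while Gas6 had 1831, 1634, 3283 and 2992 and 559, 952, 917 and 1186 (1.28 ± 0.41), each without overlap and in opposite directions (edgeR adjusted p = 0.00212 and 0.0193). Gas6 did not pass without colonic replicate 4 (1.11) or ileal replicate 1 (1.13). Of 16 genes that sense microbes 5 were lower (17.2% of all genes) and none higher, and 3 were lower without ileal replicate 1. Among the 5 was Myd88, the adaptor of most Toll-like receptors, with 289.6, 313, 356 and 279 and 734, 359, 515 and 404 (-0.84 ± 0.29, edgeR adjusted p = 0.0312), a call lost without colonic replicate 1, 3 or 4 or ileal replicate 1, at -0.82 to -0.55, and with library totals (-0.70). Of 9 genes of long-lived gut macrophages 6 were lower. Of 17 genes of TGF-beta signalling 7 were lower and 1 was higher, which was Id1, a target of BMP and TGF-beta, with 1544, 1361, 3571 and 2452 and 269, 949, 763 and 556 (1.69 ± 0.32, edgeR adjusted p = 0.00073). Of 13 genes of the aryl hydrocarbon receptor and NRF2, which answer dietary ligands and oxidants, 4 were higher and 4 lower. Each share was 30.8%, beside 15.3% and 17.2% of all genes. Gsta4, a glutathione transferase, had 1133, 1833, 973 and 1265 and 95.1, 398, 177 and 117 (2.69 ± 0.55, edgeR adjusted p = 0.0011). With ileal replicate 1 left out the counts became 7 lower and none higher for uptake and 3 lower for TGF-beta.

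A chemokine of the small intestine, its receptor and Ccl5 were lower in colon both relative to all reads and per pan-leukocyte read. Ccl25 is the chemokine of the small intestinal epithelium and Ccr9 its receptor, and together they draw lymphocytes to that segment. Ccl25 had 99.6, 81.6, 64.2 and 92.4 normalized reads in colon and 792, 2389, 2920.3 and 1547 in ileum. Ccr9 had 15.6, 7.31, 1.95 and 14.8 and 278, 312, 248 and 631, so that the lowest ileal library held many times the reads of the highest colonic one. The fold changes were -4.57 ± 0.59 and -5.38 ± 0.96 (edgeR adjusted p = 0.000141 and 0.000577). Per pan-leukocyte read Ccl25 fell by 2.34 and Ccr9 by 3.07 (edgeR adjusted p = 0.000475 and 0.000122). Ccl5, a chemokine of T cells and activated macrophages, had 12.5, 3.65, 17.5 and 77.5 normalized reads in colon and 177, 679, 455 and 617 in ileum (-4.16 ± 0.85), and was also lower per leukocyte read (-1.86, edgeR adjusted p = 0.00608). Markers of T cells moved in the same direction, as described further on, and their part in these values was not tested.

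Over the lists, 8 of 17 chemokine genes were lower and 1 was higher in colon (median -1.51), and 9 of 10 homing receptors were lower (median -2.71). The higher one was Cx3cl1, the ligand of CX3CR1 that epithelium and endothelium display, with 206, 116, 376 and 137 normalized reads in colon and 40.8, 57.2, 135 and 87.2 in ileum (1.21 ± 0.40, edgeR adjusted p = 0.0256). The groups overlapped, and without colonic replicate 3, ileal replicate 1 or ileal replicate 2 it did not pass, at 0.89 to 1.06. Without ileal replicate 1, 3 chemokine genes were lower and none was higher, and 7 homing receptors were lower.

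Receptors for lipids and their targets held genes that differed in either direction. Of 10 lipid-sensing nuclear receptors and coactivators 4 were higher (40%) and 2 lower (20%). Over all genes 15.3% were higher and 17.2% lower, so the lower share was near background. Ppard, the ubiquitous relative of Pparg, had 607, 373, 850.5 and 399 normalized reads in colon and 156, 239, 308 and 226 in ileum (1.11 ± 0.34), a call lost without colonic replicate 3 (0.94) or ileal replicate 1 (0.98). Ppargc1a, the coactivator that drives mitochondrial genes, had 265, 169, 140.1 and 211 and 29.4, 28.6, 71.4 and 23.7 (2.33 ± 0.50). Nr1h3, the oxysterol receptor LXR alpha, was in the other direction with 227, 186, 169 and 203 and 1048, 333, 616 and 414 (-1.75 ± 0.42). For the 3 genes edgeR adjusted p lay between 0.00167 and 0.0152. With ileal replicate 1 left out, 3 of the 10 were higher and 1 was lower.

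Of 19 tested targets of PPAR and LXR, 7 were higher and 7 lower (36.8% each, beside 15.3% and 17.2% of all genes). The higher ones included enzymes of fatty acid oxidation. Acadl, a dehydrogenase of long-chain fatty acids, had 1591, 1359.5, 1794 and 1463 normalized reads in colon and 649.8, 632, 1037 and 673 in ileum (0.93 ± 0.26). The lower ones included the cholesterol exporters Abca1, with 177, 52.4, 38.9 and 107 and 405, 304, 199 and 271 (-1.81 ± 0.47), and Abcg1, with 196, 46.3, 87.6 and 42.9 and 548, 216, 289 and 231 (-2.01 ± 0.48). All 3 were separate between the segments (edgeR adjusted p between 0.00298 and 0.00833). Fabp4, a lipid carrier of macrophages, fat and endothelium, had 99.6, 502, 555 and 714 and 711, 2311, 2642 and 1312 normalized reads (-1.95 ± 0.64, edgeR adjusted p = 0.0236) and lost its call without colonic replicate 1 or 3 or ileal replicate 2 or 3, at -1.94 to -1.62.

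Subunits of the mitochondrial respiratory chain were mostly higher in colon. Of 77 tested genes of oxidative phosphorylation, 70 were higher in colon and none was lower, with a median of 0.94 (background 15.3% higher). Atp5b, a subunit of ATP synthase, had 13402, 12709, 14988 and 12442 normalized reads in colon and 5402, 6778, 7119 and 5285 in ileum (1.01 ± 0.23, edgeR adjusted p = 0.00249). Cox4i1, of cytochrome oxidase, had 19396, 28655, 22432 and 27064 and 11395, 12716, 10952 and 8969 (1.06 ± 0.35, edgeR adjusted p = 0.0242) and did not pass without colonic replicate 2 or 4 or ileal replicate 3 or 4, at 0.91 to 1.02. Without ileal replicate 1, 59 of the 77 genes were higher. Of 82 cytosolic ribosomal protein genes 10 were higher (12.2%, beside 15.3% of all genes) and none lower, with a median of 0.39. Without ileal replicate 1, 3 were higher, while with library totals as size factors 28 were.

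Scavengers of oxidants gave 7 higher and 1 lower of 16 (43.75% and 6.25%, beside 15.3% and 17.2% of all genes). Aldh2, the mitochondrial aldehyde dehydrogenase, had 5185, 5498, 6245 and 8434 normalized reads in colon and 1189, 2197, 1887 and 1603 in ileum (1.79 ± 0.34, edgeR adjusted p = 0.000743). Sod1, the cytosolic superoxide dismutase, had 3403, 4755, 4435 and 4794 and 2291, 3060.1, 2871 and 2347 without overlap, but its change of 0.62 ± 0.24 was at the threshold (edgeR adjusted p = 0.0491). With replicate numbers as a block it did not pass (0.58, edgeR adjusted p = 0.0587), nor without any 1 library other than colonic replicate 1, at 0.52 to 0.69. With ileal replicate 1 left out, 4 of the 16 scavengers were higher. Of 21 genes of proliferation 1 was higher (4.76%) and none lower, with a median of 0.24. Of 18 immediate early genes, which respond to handling of tissue, 1 was higher (5.56%) and 2 were lower (11.1%). Over all genes 15.3% were higher and 17.2% lower, so neither list exceeded background. Without ileal replicate 1 none of the immediate early genes was higher and 1 was lower.

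Genes of the epithelium differed in both directions. Pan-epithelial markers were higher in colon in 13 of 16 and lower in none, with a median of 1.53. Epcam, the adhesion molecule of all epithelia, had 4609, 4916, 7662 and 4608 normalized reads in colon and 1046, 1939.6, 3011 and 1637 in ileum (1.396 ± 0.37), Krt8, a keratin, had 20334, 21884, 28523 and 24130.1 and 2864, 8533, 8051 and 5438 (1.83 ± 0.41), and Lgals4, a galectin of the gut, had 26175, 35096, 35237 and 36348 and 5377, 12711, 11896 and 8539 (1.70 ± 0.43). The ranges were apart in all 3, with edgeR adjusted p between 0.00216 and 0.00613.

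Markers of the colonic enterocyte were higher in 12 of 14, with a median of 3.34. Car1, a carbonic anhydrase, had 7009, 14583, 15538 and 7072 normalized reads in colon and 679, 1048, 1116 and 339 in ileum (3.71 ± 0.81), and Aqp4, a water channel, had 5798, 5002, 3739 and 2697 and 242, 252, 1026 and 232 (3.25 ± 0.58). Goblet cell genes were higher in 7 of 10, among them Muc2, the gel-forming mucin, with 14209, 17748, 24528 and 9826 and 1356, 2678, 2146 and 1060.2 (3.08 ± 0.49). Enteroendocrine hormone genes were higher in 4 of 8, among them Gcg, the precursor of GLP-1, with 358, 497, 601 and 567 and 6.79, 101, 120.3 and 14.8 (3.10 ± 0.86). No member of these 3 lists was lower in colon, and edgeR adjusted p of the named genes lay between 0.000317 and 0.00916.

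Among genes with a mean of 200 normalized reads or more in the higher group and no overlap, the 12 genes furthest up in colon were Insl5, Fut2, Fxyd4, Sycn, Tnni1, Gm15401, Pyy, Wfdc2, Hoxa11os, Best2, B3gnt7 and Cyp2d10, with log2 fold changes from 4.38 (Cyp2d10) to 5.51 (Insl5) and edgeR adjusted p between 0.000176 and 0.000678. Insl5 and Pyy encode hormones of the L cells of the hindgut. Insl5 had 168, 380.1, 921 and 999 normalized reads in colon and 2.26, 15.6, 18.8 and 13.3 in ileum, and Pyy had 364, 867, 1543 and 1550.3 and 4.53, 85.8, 60.1 and 28.1. Sycn, a secretory granule protein, had 5129, 8261, 9789 and 17602 and 104, 255, 293 and 525. Fut2 adds fucose to glycans of the mucosa and had 189.9, 280.2, 424 and 115 and 9.06, 0, 22.6 and 0, and Fxyd4, a regulator of the sodium pump, had 125, 253, 200.5 and 477 and 2.26, 2.6, 18.8 and 7.39. Best2 encodes a bicarbonate channel of colonic goblet cells and had 196, 99.9, 362 and 285 and 2.26, 13, 11.3 and 10.4. All 12 were higher in 3 of 3 experiments, which the rule of no overlap makes certain.

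In the ileal libraries the markers of its own enterocytes were prominent. Of 16 tested, 12 were lower in colon and none was higher, with a median of -4.01. Fabp6, the carrier of bile acids in ileal enterocytes, had 171, 194, 243 and 279 normalized reads in colon and 12726, 22944, 20912 and 13644 in ileum (-6.39 ± 1.19). Apoa1, an apolipoprotein of chylomicrons and HDL, had 15.6, 24.4, 1.95 and 19.8 and 317, 2168, 2409 and 2045 (-6.78 ± 1.20), and Sis, the sucrase of the brush border, had 18.7, 14.6, 1.95 and 16.5 and 256, 549, 786 and 504 (-5.38 ± 0.83). Apoa4 counted 3 reads over the 4 colonic libraries and 370 over the ileal ones, a ratio of 158 per mapped read (95% interval 53.6 to 768). Slc51a, a subunit of the exporter that returns bile acids to the blood, had 18.7, 30.5, 62.3 and 26.4 and 283, 507, 891 and 404 (-4.001 ± 0.43). Their edgeR adjusted p lay between 6.99e-05 and 0.0015. Per pan-leukocyte read 9 of the 16 were still lower, and Fabp6 fell by 4.01 (edgeR adjusted p = 5.55e-07). Of 5 tested genes of bile acid handling, these 2 (Fabp6 and Slc51a) were lower and none was higher.

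By the same rule, the 12 genes furthest down in colon were Gm15292, Defa21, Defa22, Defa20, Defa2, Apoa4, Defa32, Defa33, Defa31, Defa23, Defa6 and Defa3. Alpha-defensins are peptides of Paneth cells that kill bacteria. Of 27 annotated Defa genes, 21 were tested, and 21 were lower in colon, with a median of -6.90. Their summed reads were 4599, 4100.6, 333 and 5132 in colon and 364657, 189739, 708894 and 435641 in ileum. Colonic replicate 3 thus had the fewest and ileal replicate 3 the most. Single members are uncertain, because the genes are near-identical and some share their place in the annotation. Defa20 and Defa2 both start at chr8:22619730 in mm9, and Defa32 and Defa33 at chr8:22639502, so that the same reads can enter both counts. Other genes of the Paneth cell list were lower as well, such as Lyz1, the lysozyme of Paneth cells, with 2152, 825, 582 and 785 normalized reads in colon and 29464, 5210.3, 20608 and 11464 in ileum (-4.08 ± 0.65, edgeR adjusted p = 0.000317). The list had a mean sum of 26681 in the graft, beside 3295 in colon and 78445 in ileum. It is thus not particular to Paneth cells here, and the cells that gave the Lyz1 reads were not tested.

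Among 18 antimicrobial genes 11 were lower and 3 higher in colon (61.1% and 16.7%, beside 17.2% and 15.3% of all genes). Reg3g, a lectin against Gram-positive bacteria made by the small intestinal epithelium, had 999.6, 398, 401 and 300.2 normalized reads in colon and 13670.00, 5379, 46635 and 10808 in ileum (-5.28 ± 0.88, edgeR adjusted p = 0.000395). Lypd8, a protein of the colonic epithelium that binds flagella, had 25397, 20754, 34648 and 34652 and 2420.2, 4833, 7851 and 4869 (2.42 ± 0.49, edgeR adjusted p = 0.00103). The segments were separate in both genes and in opposite directions.

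The 250 bases before the start of 11841 of the tested genes were read from the mm9 sequence (NCBIM37) and searched on both strands for 6 short motifs. Windows of 4 genes described above are shown, for a gene of ileal enterocytes, 1 of goblet cells, 1 of macrophages and 1 of the interferon response. The last 2 were lower in colon. Each window runs 5′ to 3′ on the strand of its gene with matches to any of the motifs in capitals. They lie at chr11:43415065-43415314 (minus strand, Fabp6), chr7:148875989-148876238 (plus, Muc2), chr3:96097893-96098142 (minus, Fcgr1) and chr4:155574928-155575177 (minus, Isg15).
Fabp6: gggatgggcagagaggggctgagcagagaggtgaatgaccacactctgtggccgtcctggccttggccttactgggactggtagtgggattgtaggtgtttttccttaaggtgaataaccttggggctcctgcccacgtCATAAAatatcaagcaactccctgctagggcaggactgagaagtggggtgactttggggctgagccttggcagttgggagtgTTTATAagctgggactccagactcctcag
Muc2: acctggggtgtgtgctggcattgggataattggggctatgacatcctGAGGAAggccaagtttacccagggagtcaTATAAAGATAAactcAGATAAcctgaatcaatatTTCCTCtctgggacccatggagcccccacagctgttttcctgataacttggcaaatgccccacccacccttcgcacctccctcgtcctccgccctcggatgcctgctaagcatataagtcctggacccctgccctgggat
Fcgr1: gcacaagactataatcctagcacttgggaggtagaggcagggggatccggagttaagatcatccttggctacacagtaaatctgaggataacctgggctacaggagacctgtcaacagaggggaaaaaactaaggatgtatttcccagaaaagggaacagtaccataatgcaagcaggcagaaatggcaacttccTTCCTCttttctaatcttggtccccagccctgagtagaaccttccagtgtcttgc
Isg15: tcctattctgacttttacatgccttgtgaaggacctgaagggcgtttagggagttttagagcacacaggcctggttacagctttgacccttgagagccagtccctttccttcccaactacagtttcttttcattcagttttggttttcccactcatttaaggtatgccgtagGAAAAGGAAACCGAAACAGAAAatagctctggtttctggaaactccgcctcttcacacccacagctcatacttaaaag

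The windows differ in what they hold. That of Isg15 has 3 overlapping matches to the core of the interferon response element, in which GAAA is repeated after 2 free bases, which begin 78, 72 and 66 bases before the start. That of Fcgr1 has 1 match to GAGGAA, the core bound by the macrophage factor PU.1 of the ETS family, 55 bases before the start and on the opposite strand. That of Fabp6 has TATAAA, the TATA box, at 29 bases and TTTATG, a core of the CDX factors, at 111 bases, both on the opposite strand. The window of Muc2 has 2 matches to AGATAA, the core of the GATA factors, 1 of which shares a base with a TATAAA, and 2 to GAGGAA. No window shown holds CAAAGTCCA, the core of HNF4.

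Over all 11841 windows GAGGAA was found in 23.6%, in 31.5% of those of genes at least 2-fold lower in colon and in 21.5% of those at least 2-fold higher. It was present in 15 of 26 macrophage identity genes (57.7%). The interferon element was found in 3.01% of all windows, in 6.96% of the lower and 1.93% of the higher genes, and in 9 of 27 interferon genes (33.3%). AGATAA was found in 5.73% of all, 6.73% of the lower and 8.40% of the higher, and TTTATG in 6.34%, 7.95% and 8.14%. CAAAGTCCA was found in 0.439%, 0.754% and 1.43%, and TATAAA in 7.03%, 9.98% and 10.7%. These are matches of letters and were not tested as sites.

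Transcription factors that pattern the gut were mostly higher in colon. Of 19 tested, 14 were higher in colon and 1 was lower, with a median of 1.499, beside pan-epithelial markers at 1.53. Foxd2, a forkhead factor, had 389, 368, 586 and 379 normalized reads in colon and 11.3, 20.8, 41.3 and 42.9 in ileum (3.70 ± 0.61). Klf4, a factor of goblet cells and of monocytes, was even across the colonic libraries, at 7831, 8093, 7563 and 7697 and 1422, 1875, 2834 and 1749 (1.89 ± 0.35). Foxa1 had 308, 330.1, 341 and 391 and 63.4, 70.2, 109 and 69.5 (2.04 ± 0.35). Cdx1 and Hnf4a, regulators of intestinal epithelium, were at 1.94 ± 0.36 and 1.17 ± 0.30. None of these overlapped between segments, and edgeR adjusted p lay between 0.000374 and 0.006.

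The single lower factor was Gata5, of a family that specifies the small intestine. It counted 2 reads over the colonic libraries and 128 over the ileal ones, or 3.1139, 1.22, 0 and 0 against 49.8, 104, 71.4 and 69.5 normalized reads, a ratio of 81.9 per mapped read (95% interval 22.2 to 683). Its change stayed past the threshold per pan-leukocyte read (-4.15, edgeR adjusted p = 0.000459). Gata4 lay under the filter with 1 colonic and 56 ileal reads, a ratio of 71.6 (12.3 to 2879).

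Hox genes, which are switched on in the order of their place in each cluster along the body axis, were split by their paralogue group. Of 39 annotated Hox genes, 20 were tested, with 10 higher and 7 lower in colon. In groups 9 to 13, the most posterior, 7 of 7 tested were higher, and in groups 1 to 8, 3 of 13 were higher and 7 lower. Hoxb13 had 2438, 2086, 3779 and 3792 normalized reads in colon and 65.7, 138, 417 and 244 in ileum (3.70 ± 0.71), and Hoxa10 had 374, 313, 372 and 254 and 11.3, 26, 37.6 and 14.8 (3.82 ± 0.55). Hoxa9 and Hoxb9 were at 2.89 ± 0.50 and 2.90 ± 0.59. All 4 were separate between the segments, with edgeR adjusted p between 0.000222 and 0.00119.

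In the opposite direction, Hoxb4 had 59.2, 32.9, 72 and 21.4 normalized reads in colon and 222, 252, 188 and 159.7 in ileum (-2.33 ± 0.41), and Hoxb2 had 6.23, 4.87, 5.84 and 8.25 and 18.1, 75.4, 86.4 and 62.1 (-3.29 ± 0.80). Hoxb3 had 18.7, 14.6, 42.8 and 9.9 and 40.8, 70.2, 56.4 and 63.6 (-1.61 ± 0.51), with overlap, and lost its call without colonic replicate 2 or 4 or ileal replicate 4, at -1.4991 to -1.392. In cluster C the 3 tested genes were lower and in cluster A the 6 tested were higher. Hoxc6 had 0, 1.22, 0 and 8.25 in colon, where 2 of 4 libraries were at 0, and 13.6, 107, 67.7 and 124 in ileum (-4.86 ± 1.00), and Hoxc8 had 0, 1.22, 1.95 and 18.1 and 18.1, 252, 184 and 235 (-4.93 ± 1.06), with colonic replicate 4 level with ileal replicate 1. The edgeR adjusted p of these genes lay between 0.000509 and 0.0181. Per pan-leukocyte read Hoxc6 (-2.71) and Hoxc8 (-2.72) stayed lower.

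**Figure D4:**
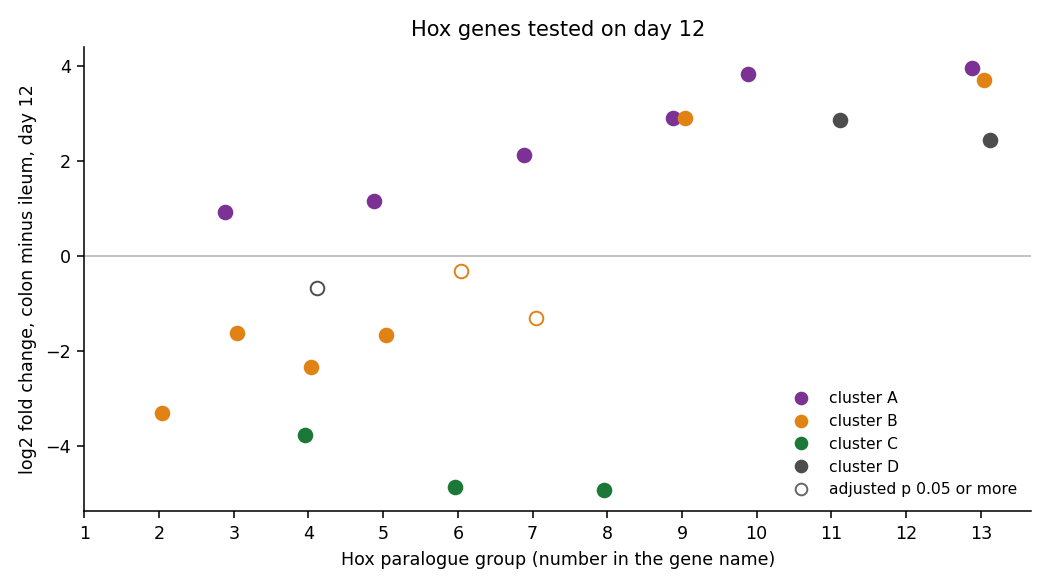
Log2 fold change, colon minus ileum on day 12, of the 20 Hox genes tested against their paralogue group, coloured by cluster. Open symbols have an adjusted p of 0.05 or more. The 7 genes of groups 9 to 13 all lie above 0, whereas the 7 lower genes belong to clusters B and C and to groups 2 to 8.

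Genes of salt transport under aldosterone were mostly higher in colon, the segment in which that hormone acts on the epithelium. Of 10 tested 6 were higher and 2 lower (60% and 20%, beside 15.3% and 17.2% of all genes). Nr3c2, the mineralocorticoid receptor, had 118, 69.4, 79.8 and 70.9 normalized reads in colon and 11.3, 26, 30.068 and 5.91 in ileum, without overlap (2.19 ± 0.64, edgeR adjusted p = 0.0128), and did not pass without ileal replicate 4 (1.87). Hsd11b2, the enzyme that shields this receptor from glucocorticoids, had 1915, 1664, 3639 and 2156 and 81.5, 226, 293 and 199.6 (3.42 ± 0.67). Scnn1a, a subunit of the epithelial sodium channel, had 271, 266, 543 and 269 and 18.1, 23.4, 63.9 and 26.6 (3.27 ± 0.53), and Atp1b1, of the sodium pump, had 7504, 7158, 9275 and 6066 and 876, 1947, 2830.1 and 1647 (1.93 ± 0.38). For the last 3 genes edgeR adjusted p lay between 0.000325 and 0.000834.

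Of 12 genes that make, bind or remove retinoic acid, which imprints gut homing on lymphocytes, 2 were higher and 5 lower. The shares were 16.7% and 41.7%, beside 15.3% and 17.2% of all genes. Adh1, an alcohol dehydrogenase that oxidises retinol, had 6882, 5025, 10513 and 11559.5 normalized reads in colon and 183, 445, 932 and 543 in ileum (3.91 ± 0.57). Aldh1a3, which makes retinoic acid, had 24.9, 2.44, 11.7 and 34.6 and 4.53, 504, 199 and 229 (-3.79 ± 0.97), with ileal replicate 1 as low as the colonic libraries. Cyp26b1, which breaks it down, had 18.7, 15.8, 11.7 and 41.2 and 122, 502, 447 and 146 (-3.79 ± 0.85). With edgeR adjusted p between 0.000214 and 0.00549 all 3 passed, and the last 2 genes stayed lower per pan-leukocyte read (-1.81 and -1.58).

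Lymphocyte markers were lower in colon, and T and B cells lie outside the gate. Of 8 tested T cell genes 8 were lower (median -3.91), and of 4 genes of B and plasma cells 4 (median -4.59). The summed T cell reads were 152 to 275 in colon and 1118 to 1742 in ileum. Cd3d, of the T cell receptor complex, had 0, 1.22, 1.95 and 6.6 normalized reads in colon and 38.5, 91, 143 and 90.2 in ileum (-5.02 ± 0.87), and Cd3e, under the filter, counted 0 reads in colon and 58 in ileum, which is at least 24.7-fold higher in ileum per mapped read with 3 reads over the group as the floor. Gzma, a granzyme of intraepithelial lymphocytes, had 9.34, 1.22, 0 and 4.95 and 61.1, 112, 165 and 223 (-5.45 ± 1.121). Jchain, which joins secreted IgA in plasma cells, had 5013, 816, 572 and 6091 and 20036, 36219.8, 36472 and 138091 (-4.35 ± 1.09), with ileal replicate 4 far above the others. All 3 passed (edgeR adjusted p between 0.000514 and 0.00434). Per pan-leukocyte read 4 of the 8 T cell genes and 4 of the 4 genes of B and plasma cells were lower, these 3 among them (-2.81, -3.35 and -2.18, edgeR adjusted p between 0.000447 and 0.00401).

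Endothelial genes were lower in 7 of 7 tested, with a median of -2.14. Plvap, of the diaphragms of fenestrated capillaries, had 252, 825, 1066 and 1164 normalized reads in colon and 1881, 7561, 6397 and 4786 in ileum (-2.72 ± 0.78, edgeR adjusted p = 0.0109). Replicate 1 was the lowest in either segment, whereas it had the highest macrophage sum in either segment. Fibroblast genes gave 1 higher and 1 lower of 7, and smooth muscle genes 1 lower of 6, shares close to the 15.3% higher and 17.2% lower of all genes. These counts became 1 and 2 of 7 and 3 of 6 without ileal replicate 1. Dendritic cell genes were lower in 3 of 4 tested (75%, beside 17.2% of all genes). Neutrophil genes were lower in 2 of 7 (28.6%) and higher in 1 (14.3%), the latter share near the 15.3% of all genes. Prg2, the single tested gene of mast cells and eosinophils, was lower.

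Of the 24 genes that the study chose on these samples to set the segments apart, 9 were higher in colon and 13 lower, and since they were picked here their direction is not independent evidence. Tlr1 did not pass, with 392, 264, 509.9 and 333 normalized reads in colon and 446, 143, 248 and 194 in ileum (0.37 ± 0.34, edgeR adjusted p = 0.456), nor did Sox4, a factor of progenitor cells, with 887, 498, 924 and 534 and 514, 1417, 1338 and 959.6 (-0.70 ± 0.31, edgeR adjusted p = 0.0853). Both overlapped, and without ileal replicate 1 Sox4 passed as lower (-0.91). The study counts Tlr1 with colonic and Sox4 with ileal macrophages, and both values pointed that way. Foxp1, a forkhead factor of monocytes and lymphocytes, was higher at 1613, 1530.1, 2042 and 1628 against 414, 952, 703 and 648 (1.21 ± 0.24), and Trim16, a tripartite motif protein, at 311, 229, 299.7 and 319.95 against 45.3, 49.4, 94 and 59.1 (2.12 ± 0.39). For these 2 genes edgeR adjusted p was 0.000797 and 0.000577.

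Lower in colon were Elk3, an ETS factor, with 77.8, 106, 152 and 119 normalized reads against 421, 512, 489 and 374 in ileum (-2.09 ± 0.37), Arid5a, which stabilises Il6 mRNA, with 181, 121, 111 and 257 against 643, 512, 263 and 398 (-1.55 ± 0.38), and Ano6, a lipid scramblase, with 165, 286, 401 and 270.5 against 582, 967, 763 and 759 (-1.57 ± 0.27). Hdac7, a class IIa histone deacetylase, had 90.3, 138, 226 and 181 against 351, 1141, 737 and 611 (-2.26 ± 0.51), and Fmnl3, a formin of the cytoskeleton, had 68.5, 28, 62.3 and 59.4 against 119.99, 259.99, 274 and 195 (-2.10 ± 0.48). These 5 were separate between the segments (edgeR adjusted p between 0.000452 and 0.00386). Id2, an inhibitor of helix-loop-helix factors, was lower in colon at 333, 398, 607 and 318 against 1252, 554, 616 and 763, with overlap (-1.119 ± 0.31, edgeR adjusted p = 0.00796), and lost its call without ileal replicate 1 (-0.78). The study gives Id2 the opposite direction, among genes preferentially raised in monocytes that entered the colon. It chose such genes by their rise from graft to day 4 and a segment difference at all time points.

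The difference between the segments on day 12 was set against the earlier days by the interaction of segment and time. On day 8, 4144 of 11842 genes (35%) differed between colon and ileum, 1981 higher in colon (16.7%) and 2163 lower (18.3%). On day 4, 377 (3.18%) differed, of which 62 (0.524%) were higher in colon and 315 (2.66%) lower. The day 4 comparison rests on 7 libraries, of which ileal replicates 3 and 4 held only 591817 and 760657 reads on genes. The study also reports that some of the earliest ileal samples clustered with the colonic ones. The lower count therefore does not show that the segments differed less on day 4. No gene had a difference on day 12 that departed from that on day 8 at an adjusted p under 0.05 by edgeR, with 496 at an unadjusted p under 0.05 (4.19% of genes) and 0 by DESeq2. For day 12 against day 4 no gene passed by edgeR, with 739 at an unadjusted p under 0.05 (6.24%), and 1, Emp1, passed by DESeq2. Emp1, an epithelial membrane protein, was higher in colon on day 12, with 1641, 2402.3, 1915 and 945 normalized reads against 281, 252, 560.01 and 197 (2.34 ± 0.52), and on day 4 the difference was -1.08. The interaction of 3.42 ± 0.75 had an unadjusted p of 0.000141 and an edgeR adjusted p of 0.374.

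Genes with the smallest p against day 4 were, besides Emp1, Hsd3b2, Arl14, Sptssb and Foxd2os, with interactions from 3.18 (Foxd2os) to 5.33 (Sptssb), and against day 8 Snhg12, Rbm19, Hist1h2ak, Stk24 and Gpr137b-ps, with interactions from -2.35 (Gpr137b-ps) to 2.21 (Hist1h2ak). For Pparg the segments differed by 0.12 on day 4, 2.56 on day 8 and 2.05 on day 12. For Il10ra the values were -2.60, -2.48 and -1.78, and for Nos2 -1.76, -1.63 and -2.10. None of their interactions passed. Pan-epithelial markers had medians of 0.58, 1.78 and 1.53 on the 3 days, and macrophage identity genes -1.76, -1.87 and -1.90.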

How the data were processed

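RNA of the sorted cells was captured on oligo(dT) and read at its 3′ ends by a protocol derived from MARS-seq. According to the methods and the submitters' processing notes, the authors mapped reads to mm9 with HISAT 0.1.6, kept unique matches and counted sense reads on exons with HOMER, 1 entry per gene. These raw counts of 24411 genes were deposited and used as they stood, and the total of mapped reads was taken from the file headers. Whether molecular identifiers were collapsed is not given in the sources used here. The table of the other chimeras was not used here.

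Genes reaching 50 normalized reads in 3 or more of 25 libraries (11842) were fitted in edgeR 4.0.16 (R 4.3.3) with TMM factors, 7 groups and no block, after a test on simulated data. Of the colon day 8 libraries 1 was left out because the source data of the study's heat map do not list it. A gene passed at an adjusted p under 0.05, and the SE is the fold change divided by the root of F. Members and lists were chosen with earlier results of these data known. Named were Pparg, Nos2 and Il10ra, the study's segment genes, the 12 largest changes in either direction (where the higher group averaged 200 normalized reads or more and the groups did not overlap), up to 4 passing members of each list by mean level, defining markers and 5 genes per interaction, and further members were chosen after their values had been seen. Deviations of same-numbered colonic and ileal libraries correlated at 0.517, 0.186, 0.178 and 0.352, and same numbers share an experiment by the dates in the titles. Colonic replicate 3, however, correlated more with ileal replicate 2 (0.268), of another experiment. Replicates 1 and 2 share a date, and the labels do not say whether same-numbered libraries came from the same animals. The replicate block is therefore an assumed pairing. No replicates agreed within sampling noise (smallest chi-square per degree of freedom 14.07). Alternatives were DESeq2 1.42.0, other size factors and filters, blocks and omission of libraries. Some members of the lists are counted but not reported here by name.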

Additional observations from a re-analysis of the deposited data

Results flagged for a closer look

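Within the 4 libraries of a segment, 29 of 242 sets of values held 1 library whose gap to the nearest of the others passed Dixon's limit, where chance gives about 1 in 20 and genes that share libraries are not independent. Ileal replicate 1 stood apart in 10 of them and colonic replicate 1 in 7. Values are normalized reads, with the range of the other 3 libraries in parentheses.

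In ileal replicate 1 genes of myeloid cells were high. Csf1r had 17974 (others 3725 to 4600.1), Ptprc had 3052 (others 905 to 1131) and C1qa had 34542 (others 12651 to 13729.6). Isg15 had 3192 (others 466 to 639), Il1b had 11148 (others 2738 to 3183), Cybb had 6009 (others 1295 to 1842) and Mmp9 had 8626 (others 1570.3 to 2506). The summed pan-leukocyte reads were 33503 (others 9929 to 13692). The summed smooth muscle reads were low at 365 (others 7025 to 7806), and Tnni1, a slow skeletal troponin, had 0 (others 38.4 to 41.6).

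In colonic replicate 1 the myeloid genes were likewise high, with 3942 (others 1048 to 1207) for Csf1r and 3958 (others 1199 to 1274) for Lyz2, and the summed reads of dendritic cell genes were 199 (others 69.4 to 91.5). Lyz1 was high at 2152 (others 582 to 825), as was the summed Paneth cell list at 8326 (others 1304 to 1824). Its 5 members lower in colon had 2152 (Lyz1), 439 (Defa24), 255 (Itln1), 159 (Defa17) and 9.34 (Mmp7). Most of that sum thus came from the 1 member that did not pass. Reg3g, an antimicrobial lectin of the epithelium, was high at 999.6 (others 300.2 to 401). The summed Defa reads did not stand apart at 4599 (others 333 to 5132), and Lgals4 was low at 26175 (others 35096 to 36348).

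Colonic replicate 3 was high in Epcam at 7662 (others 4608 to 4916), Foxd2 at 586 (others 368 to 389) and Scnn1a at 543 (others 266 to 271). Colonic replicate 4 held more Hoxc6 at 8.25 (others 0 to 1.22) and Hoxc8 at 18.1 (others 0 to 1.95). Ileal replicate 3 was high in genes that were otherwise of the colon, with 71.4 (others 23.7 to 29.4) for Ppargc1a, 1037 (others 632 to 673) for Acadl, 1026 (others 232 to 252) for Aqp4 and 109 (others 63.4 to 70.2) for Foxa1. Ileal replicate 4 was high in genes of lymphocytes, with 631 (others 248 to 312) for Ccr9, 138091 (others 20036 to 36472) for Jchain and 141922 (others 21214 to 37678) for the summed genes of B and plasma cells.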

How the results depend on the processing

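The count of genes that differed on day 12 stayed within 1.5 times of 3846 with other size factors, with DESeq2 (4219), with no filter (4010) or one at 200 normalized reads (2978 of 7817), with the 2 groups alone, with all 26 libraries (3312) and by experiment as a block (3566). With library totals 3689 passed and 56.0% were higher instead of 47.0%, at a median of 0.11. With same-numbered libraries as a block, a pairing that the labels do not state, 4554 passed (2026 higher, 2528 lower). Of 103 named genes that passed, Sod1 lost its call under that block and no other did. Leaving out 1 library gave 2902 to 3678 genes, or 2451 to 2989 at 2-fold. In experiment 2 alone (2 against 2) 0 genes passed at either threshold in edgeR, with 2722 at an unadjusted p under 0.05. Per pan-leukocyte read 9969 genes passed, and per read of Csf1r, Fcgr1 and Adgre1 8157, the same numbers at 2-fold. The median of all genes was 1.94 on the latter scale and 2.42 on the former, and with this common shift Nos2 (-0.41), C1qa (-0.40) and Isg15 (-0.21) lay below 0 on the latter, which is no result about these genes. The causes of the other shifts were not tested. The interaction with day 4 gave 1 gene in DESeq2, which returned an adjusted p for only 3118 of the 11842 genes. It gave 0 in the other alternatives, and the interaction with day 8 gave 0 in all. Leaving out 1 library ended the call of 19 of the 103 genes, 15 of them without ileal replicate 1, and over the other alternatives 20 of 964 values lost theirs, all of Adgre1, Cd74, Cx3cl1, Id2, Il1b, Jak1, Myd88 and Sod1. The first principal component held 58.5% with 1 added before the log and 74.6% with 2000 genes. Genes at or under the floor of 3 reads in a segment, such as Gata5, Apoa4 and Cd3e, have ratios set by few counts.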
